A study of Mus musculus with 25 samples.

Results

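Resting regulatory T cells that lack the NF-kB subunit p65 (p65KO Treg, 3 libraries) were compared with wild-type regulatory T cells (WT Treg, 4 libraries) by RNA-seq. These 7 libraries, of 25 in the series, were chosen by their titles as the p65KO and WT Treg libraries that had not been stimulated. All came from spleen and lymph node of C57BL/6 mice, and the labels give the genotypes as p65KO and WT. The sources used here do not name the deleted exons, any Cre driver, the sex, the age or the number of animals behind a library. Separate animals are thus not documented for the replicates. The p-values measure a spread between libraries that may be technical, pooled over 21 libraries in 10 groups. That spread is not of the 7 compared libraries alone, as the 21 include other genotypes, conventional T cells and stimulated cells. The remaining libraries were DKO Treg (p65 c-Rel DKO, lacking both subunits), c-RelKO Treg, WT conventional T cells, stimulated cells of the same kinds, and 4 TAT-Cre libraries that were not used here.

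NF-kB is a family of dimeric transcription factors built from the products of Rela (p65), Rel (c-Rel), Relb, Nfkb1 and Nfkb2. In unstimulated cells, inhibitors of the IkB type such as the product of Nfkbia hold the dimers in the cytoplasm. Signals from the T cell receptor, CD28 and TNF-family receptors lead to the destruction of these inhibitors, the dimers enter the nucleus and bind κB sites, and among the genes they switch on are their own inhibitors. Treg restrain other immune cells and depend on the transcription factor Foxp3. A part of them, called effector Treg, carries activation genes such as Prdm1 and Icos and tissue-homing receptors, while resting or central Treg keep genes of naive T cells.

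Levels are FPKM, fragment numbers scaled to transcript length and to library size. Values are listed for p65KO replicates 1, 2 and 3 and for WT replicates 1, 2, 3 and 4. Libraries carry numbers that fall into 4 consecutive runs, and p65KO replicates 1, 2 and 3 were paired with WT replicates 1, 2 and 4 of the same runs (1, 2 and 4), which gave 3 within-run pairs. WT replicate 3 stood in run 3, with no p65KO library. Differences are log2(FPKM + 1), p65KO minus WT, ± SE, from limma with the run as a block, and a gene is called at a Benjamini-Hochberg adjusted p under 0.05 over the 11532 genes tested. Changes of genes with low FPKM are understated on this scale. Rise and fall are used of called genes.

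Several libraries stood apart. The depth implied by the confidence bounds was 18.3 to 41.7 M fragments per library (M, 1e6). The pair of run 1 differed in sex-linked genes: Xist, the RNA of the inactive X chromosome, was 0.108 FPKM in p65KO replicate 1 and 131 FPKM in WT replicate 1, and the Y-linked gene Ddx3y was 47.7 FPKM in p65KO replicate 1 and 0.0791 FPKM in WT replicate 1. In runs 2 and 4 the paired libraries matched in both genes. Run 1 libraries of both genotypes also had low levels of genes induced early by the T cell receptor. p65KO replicate 3 had 336 FPKM of the neutrophil gene S100a8 and 283 FPKM of S100a9, against at most 27.8 and 22.2 FPKM in the other 6 libraries. WT replicate 1 had more B cell transcript than the other libraries, and WT replicate 2 had 453 FPKM of the haemoglobin gene Hba-a1. T cell identity genes such as Cd3e and Cd4 were high in all 7 libraries, with 1 of 10 called (Cd2, 0.39 ± 0.10, adjusted p = 0.0373). That rise was 10% of the list, against 7.08% of all genes tested.

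The targeted gene Rela (chr19:5637490-5648130, mm9 as for all genes) kept much of its transcript. It was 58, 69.3 and 79.8 FPKM in p65KO Treg, against 64.9, 99.1, 129.7 and 124 FPKM in WT Treg. Each p65KO library was below its run partner, and the groups overlapped only through WT replicate 1. Rela fell by 0.44 ± 0.10 (adjusted p = 0.0245), and without the block the adjusted p was 0.347. It was also lost without p65KO replicate 3, either library of run 2, WT replicate 3 or WT replicate 4. Gene-level FPKM sums all exons, so this value does not show how much of the mRNA can still encode p65. Foxp3 (chrX:7156802-7172369) was 139.7, 232 and 282 FPKM in p65KO Treg and 129, 210.5, 344 and 351 FPKM in WT Treg. Its levels overlapped, being higher than in the WT partner in runs 1 and 2 and lower in run 4. The difference was -0.11 ± 0.24, adjusted p = 0.79, with a 95% interval of -0.64 to 0.41. In bulk RNA, fewer cells of a type and less RNA per cell cannot be told apart.

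With the run as a block 1017 of 11532 genes were called (8.82%), 816 higher in p65KO Treg (7.08% of the genes tested) and 201 lower (1.74%). The median difference of all genes tested was 0.07. At least a 2-fold difference was reached by 75 of the genes that rose and 17 of those that fell. Of the genes called, 1011 had the same sign in all 3 pairs, as had 3743 genes tested that were higher (32.5%) and 1766 that were lower (15.3%). The 3 p65KO libraries lay entirely above the 4 WT libraries for 518 genes tested (4.49%) and entirely below for 137 (1.19%).  Without the block 5 genes were called (0.0434%), 4 of them higher (0.0347%) and 1 lower (0.00867%), with 1130 at an unadjusted p under 0.05, and 51 were called without p65KO replicate 3 and 135 without either library of run 1. Of 80 called genes that the rule for named genes picked, 11 stayed called whichever library was left out: Gzmb, Cxcr3, Tigit, Penk, S100a4, S100a6, S100a11, Fam55d, Lsr, Frmd5 and Gm4951. Fitted on the 13 resting libraries alone, a setting added after the data were seen, 85 were called. After division by size factors 383 genes rose and 229 fell, so that 62.6% of the calls were rises, against 80.2% as reported.

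**Figure D1:**
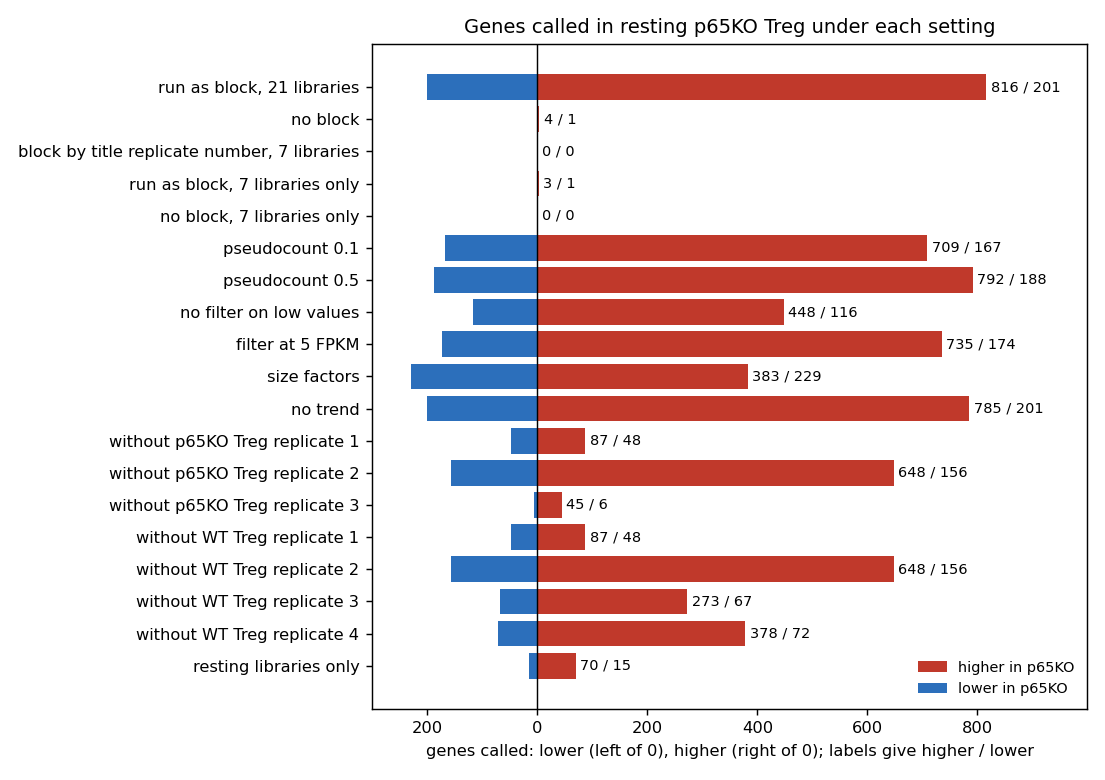
Number of genes called higher in p65KO Treg (right of 0, red) and lower (left of 0, blue) under each setting of the test, with both counts printed beside the bar. The run as a block gave 816 and 201 calls, no block gave 4 and 1, and leaving out p65KO Treg replicate 3 gave 45 and 6.

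Genes of the NF-kB pathway itself were lower in p65KO Treg in part. Of 5 subunit genes, Rela, Rel and Relb fell (60% of the list, against 1.74% of all genes tested), and of 16 tested inhibitors and feedback regulators Nfkbia, Tnfaip3 and Tnip1 fell (18.8%). Rela is the targeted gene itself, so its fall does not speak for the rest of the pathway. From 23 tested target genes Icam1 and Cd83 fell (8.70%), and none of the 44 genes in these lists rose. The medians were -0.44 for subunits, -0.19 for inhibitors and -0.05 for targets. None of 15 genes of the IkB kinase complex and its adaptors was called, with a median of 0.00. None of the 8 falls stayed called without p65KO replicate 3 or without the block, and Cd83 alone stayed on resting libraries. Without either library of run 1 the falls were 3, 3 and 4 in the 3 lists.

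For the 8 genes that fell, promoter windows of 250 bases before the RefSeq start were read from the RefSeq sequences of GRCm38.p6, of which 6 genes had one. They were searched on both strands for the κB consensus, the 10-base motif bound by NF-kB dimers. Windows of 4 genes held a match, against 9.01% of 10472 windows of genes tested and 7.25% of all 32851 windows. The 8 genes came from lists of NF-kB genes that include known targets. Uncalled members of these lists were not set beside them, so the shares do not tell genes that fell from other listed genes. Windows with a match are shown 5′ to 3′ on the gene's strand, with matching bases in capitals, where overlapping matches on either strand run together. The window of Rel is chr11:23770970-23771219, that of Nfkbia chr12:55492648-55492897, that of Tnfaip3 chr10:19015411-19015660 and that of Tnip1 chr11:54962941-54963190, all on the minus strand.
Rel: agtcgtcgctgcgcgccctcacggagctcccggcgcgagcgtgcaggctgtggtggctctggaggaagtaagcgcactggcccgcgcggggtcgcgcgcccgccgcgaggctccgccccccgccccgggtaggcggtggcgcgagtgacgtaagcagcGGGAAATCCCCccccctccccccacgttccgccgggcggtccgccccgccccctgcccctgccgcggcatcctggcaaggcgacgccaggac
Nfkbia: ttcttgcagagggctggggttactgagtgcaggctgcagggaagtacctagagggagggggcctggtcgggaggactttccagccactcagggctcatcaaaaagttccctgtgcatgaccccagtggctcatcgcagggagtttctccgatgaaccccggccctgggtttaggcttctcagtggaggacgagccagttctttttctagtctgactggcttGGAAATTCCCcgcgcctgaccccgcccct
Tnfaip3: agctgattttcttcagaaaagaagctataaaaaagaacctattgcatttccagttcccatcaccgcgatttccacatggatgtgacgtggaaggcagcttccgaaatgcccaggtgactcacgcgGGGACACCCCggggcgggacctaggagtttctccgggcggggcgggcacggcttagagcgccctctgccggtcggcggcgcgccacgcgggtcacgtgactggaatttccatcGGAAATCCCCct
Tnip1: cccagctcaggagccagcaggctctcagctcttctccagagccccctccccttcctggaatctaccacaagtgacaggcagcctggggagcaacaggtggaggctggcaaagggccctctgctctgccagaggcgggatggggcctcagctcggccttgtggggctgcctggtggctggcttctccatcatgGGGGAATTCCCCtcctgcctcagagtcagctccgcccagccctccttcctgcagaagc
The first matching base lay at -92 in Rel, -29 in Nfkbia, -125 and -12 in Tnfaip3 and -58 in Tnip1, counted from the start. A further start of Tnfaip3 had a window without a match, as did the windows of Rela and Icam1. A match describes letters in a window and not a bound site. Relb and Cd83 are named only.

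Among the subunits, Rel (chr11:23641729-23670970), which encodes c-Rel, was 24.6, 120.4 and 128 FPKM in p65KO Treg, against 27.5, 199.5, 271 and 252 FPKM in WT Treg. Levels in run 1 were low in both genotypes, and the 2 later p65KO libraries lay below the 3 later WT libraries. It fell by 0.65 ± 0.12 (adjusted p = 0.014). Relb (chr7:20191571-20214787), the subunit of the alternative pathway, was 26.8, 30.7 and 50.5 FPKM in p65KO Treg and 39.1, 71.1, 98.8 and 116 FPKM in WT Treg. Only p65KO replicate 3 reached above the lowest WT library, and Relb fell by 0.96 ± 0.17 (adjusted p = 0.0133). The within-run differences of Relb were -0.53, -1.18 and -1.18 in runs 1, 2 and 4. Nfkb1, which encodes p50, was lower in each pair without being called (-0.36 ± 0.16, adjusted p = 0.179), and Nfkb2 was higher in run 1 and lower in runs 2 and 4 (-0.34 ± 0.19, adjusted p = 0.266).

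**Figure D2:**
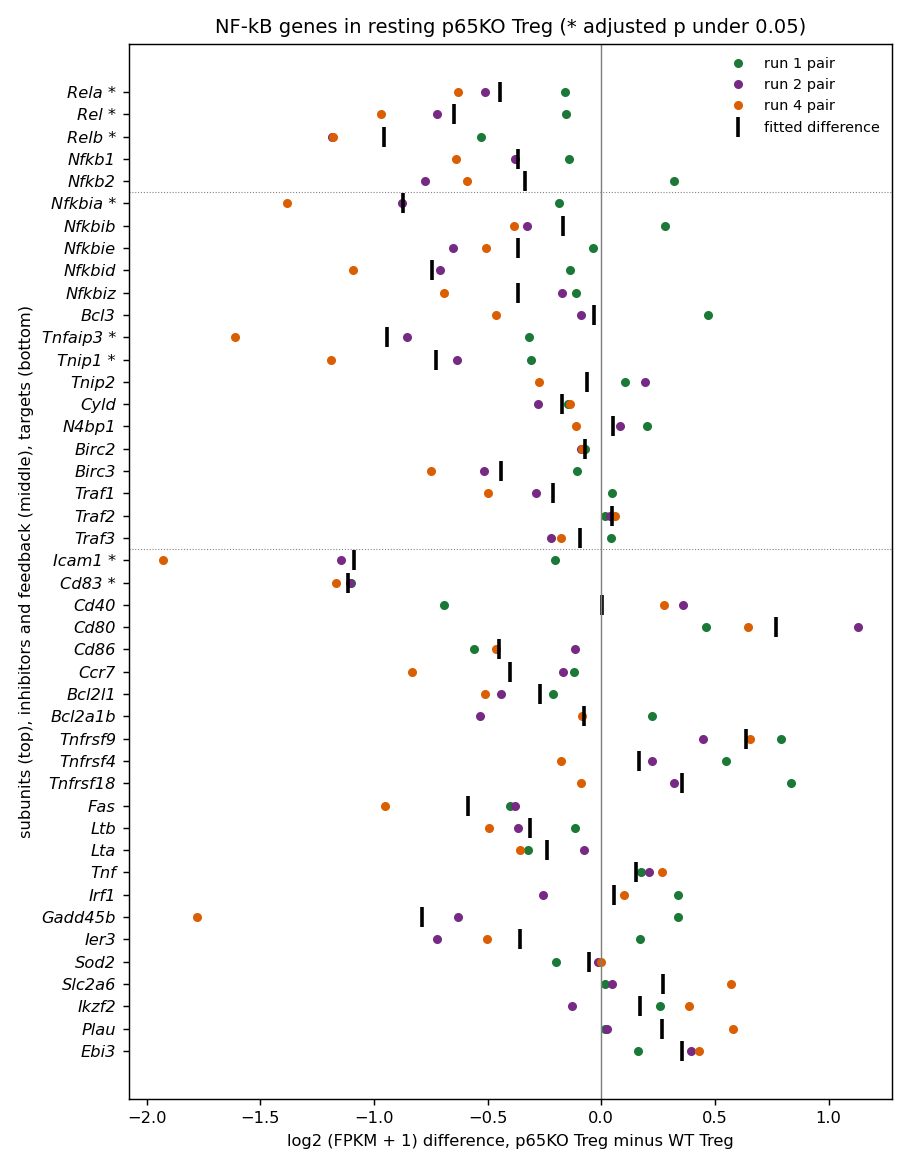
Within-run log2(FPKM + 1) difference of each NF-kB gene, p65KO Treg minus WT Treg, for subunits (top), inhibitors and feedback regulators (middle) and target genes (bottom). Points are the 3 pairs, black ticks the fitted difference, and asterisks mark adjusted p under 0.05; for most falling genes the run 1 pair lies nearest 0, as for Rel, Nfkbia and Icam1.

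The inhibitors that fell are known targets of NF-kB that act back on it. Nfkbia (chr12:56590396-56593634), which encodes the cytoplasmic inhibitor IkBα, was 175, 332 and 319 FPKM in p65KO Treg, against 199, 610.2, 857 and 833 FPKM in WT Treg. The p65KO libraries of runs 2 and 4 stood far below the WT libraries of runs 2 to 4, and the pair of run 1 was nearly level. Nfkbia fell by 0.87 ± 0.18 (adjusted p = 0.0192). Tnfaip3 (chr10:18720717-18735216), the ubiquitin-editing protein A20, was 40.3, 539.9 and 247 FPKM in p65KO Treg and 50.5, 978, 1070.03 and 756 FPKM in WT Treg. WT replicate 1 stood alone at the low end of its group. Tnfaip3 fell by 0.94 ± 0.22 (adjusted p = 0.0256), and the call was lost when either library of run 2, WT replicate 3 or WT replicate 4 was left out. Tnip1, a binding partner of A20, was 74.9, 90.3 and 49.5 FPKM in p65KO Treg and 93, 141, 102 and 114 FPKM in WT Treg, with no overlap (-0.73 ± 0.15, adjusted p = 0.0192). Nfkbid, Nfkbie, Nfkbiz and Birc3 were lower in all 3 pairs without being called, with differences of -0.74, -0.37, -0.37 and -0.44 and adjusted p of 0.112, 0.279, 0.0572 and 0.0687. Bcl3, Traf2 and Cyld differed by -0.03, 0.05 and -0.17.

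Of the target genes, the adhesion molecule Icam1 (chr9:20820404-20833240) was 31.1, 21.6 and 26.8 FPKM in p65KO Treg, against 36, 49.1, 68.2 and 105 FPKM in WT Treg. All p65KO libraries were below all WT libraries, by a narrow margin in run 1, and Icam1 fell by 1.09 ± 0.22 (adjusted p = 0.0192). Cd83 (chr13:43880476-43898501), a surface protein that stabilizes MHC class II and CD86, was 29.5, 142 and 122 FPKM in p65KO Treg and 64.4, 307, 194 and 276 FPKM in WT Treg. It was less abundant in each pair (-1.10, -1.10 and -1.17 in runs 1, 2 and 4) and fell by 1.12 ± 0.16 (adjusted p = 0.00733). A fit on the 7 libraries alone, with the run as a block, also called Cd83, as 1 of 4 genes beside Gzmb, Lgals3 and S100a6. Fas, the death receptor, had 29.2, 57.9 and 58.8 FPKM in p65KO Treg and 38.9, 75.6, 89.8 and 115 FPKM in WT Treg and missed the threshold (-0.59 ± 0.17, adjusted p = 0.05003). Other textbook targets did not move one way: Tnfrsf9 (4-1BB) and Cd80 were higher in each pair (0.64 ± 0.19, adjusted p = 0.0609 and 0.77 ± 0.28, adjusted p = 0.103), Gadd45b and Ccr7 had differences of -0.79 and -0.40, and Sod2, Irf1 and Bcl2a1b of -0.05, 0.06 and -0.07, none of them called. Ccl22 was below the level tested.

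c-RelKO and DKO Treg, measured in runs 3 and 4 and set against the same WT libraries, give context for these genes. Nfkbia was 713 and 639 FPKM in c-RelKO Treg and 162 and 128 FPKM in DKO Treg, beside 175, 332 and 319 FPKM in p65KO Treg. Cd83 was 119 and 136 FPKM in c-RelKO Treg and 4.26 and 7.38 FPKM in DKO Treg. Nfkbia in c-RelKO Treg stood above the p65KO libraries and below the WT libraries of runs 3 and 4, while Cd83 was lowest in DKO Treg.

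Effector Treg genes rose in part. Of 32 tested, 13 rose (40.6%, against 7.08% of all genes tested) and none fell, with a median of 0.57. In all 3 pairs 20 of the 32 were higher, as were 32.5% of all genes tested. Those called included Prdm1, Icos, Gzmb, Tigit, Itgae, Cxcr3, Ccr8, Id2, Tbx21, Havcr2, Lag3 and Tnfrsf1b. The count of rises was 5 without either library of run 1, 8 without WT replicate 3 and 5 on resting libraries alone. Without p65KO replicate 3 it was 3, and 1 effector gene was then called lower.

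Gzmb (chr14:56877695-56881097), the protease granzyme B, was 107, 106 and 156 FPKM in p65KO Treg, against 24.9, 17.3, 14.1 and 32.3 FPKM in WT Treg. Every p65KO library was several times above every WT library. It rose by 2.36 ± 0.27 (adjusted p = 0.00223), and it also passed without the block (adjusted p = 0.045). Tigit, an inhibitory receptor, was 300.4, 344 and 399.96 FPKM in p65KO Treg and 86.9, 223, 291 and 203 FPKM in WT Treg (1.09 ± 0.17, adjusted p = 0.00815). Icos, a costimulatory receptor, was 189, 479 and 491 FPKM in p65KO Treg and 111, 295, 318 and 274 FPKM in WT Treg (0.79 ± 0.14, adjusted p = 0.014). Tigit did not overlap between the groups, whereas Icos in p65KO replicate 1 lay below WT replicates 2 to 4. Prdm1, which encodes the regulator Blimp-1, had 19.3, 12.3 and 12.4 FPKM in p65KO Treg and 9.07, 8.27, 5.81 and 5.27 FPKM in WT Treg, also without overlap (0.89 ± 0.13, adjusted p = 0.00733). Ccr8, a receptor of tissue Treg, was 85.7, 285 and 407 FPKM in p65KO Treg and 24.9, 188, 112 and 104 FPKM in WT Treg (1.52 ± 0.33, adjusted p = 0.0238). Its levels were lowest in run 1 in both genotypes, and the call was lost without either library of run 1, p65KO replicate 3, WT replicate 3 or WT replicate 4. Itgae, the integrin chain CD103, had 85.6, 162 and 52.4 FPKM in p65KO Treg and 70.3, 65.5, 17.3 and 15.3 FPKM in WT Treg (1.15 ± 0.26, adjusted p = 0.0241), and its rise was lost when either library of run 2, WT replicate 3, WT replicate 4 or p65KO replicate 3 was left out. Il10 was not called (0.64 ± 0.37, adjusted p = 0.279), and neither were Irf4 (-0.16 ± 0.12, adjusted p = 0.402), Batf (0.38 ± 0.14, adjusted p = 0.108) and Klrg1 (0.87 ± 0.28, adjusted p = 0.072).

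Type 1 and cytotoxic genes partly share members with that list. Of 27 tested, 7 rose (25.9%, against 7.08% of all genes tested) and none fell, with a median of 0.58. The count was 3 without either library of run 1 or on resting libraries alone and 2 without p65KO replicate 3. Tbx21 (chr11:96959321-96976645), which encodes T-bet, the defining factor of type 1 T cells, was 18.3, 10.8 and 22.4 FPKM in p65KO Treg, against 4.32, 7.57, 4.68 and 3.96 FPKM in WT Treg. The groups did not overlap and run 2 had the smallest gap, and Tbx21 rose by 1.56 ± 0.28 (adjusted p = 0.014). Cxcr3, a chemokine receptor induced by T-bet, was 171, 63 and 51.2 FPKM in p65KO Treg and 50.8, 32.4, 34.5 and 24.3 FPKM in WT Treg. It was higher in each pair (1.73, 0.94 and 1.05) and rose by 1.22 ± 0.15 (adjusted p = 0.00286). Il18rap, an IL-18 receptor chain, was 18, 14.1 and 16.5 FPKM in p65KO Treg and 10.8, 8.39, 12.6 and 8.75 FPKM in WT Treg (0.77 ± 0.13, adjusted p = 0.0117). Nkg7, a cytotoxic granule protein, had 268, 70.3 and 24.5 FPKM in p65KO Treg and 31, 30.5, 3.41 and 6.17 FPKM in WT Treg (2.17 ± 0.51, adjusted p = 0.0285). The chemokine Ccl4, uncertain because of near-identical family members, had 39.9, 2.12 and 30.2 FPKM in p65KO Treg and 2.0, 0.492, 1.76 and 1.52 FPKM in WT Treg (2.79 ± 0.60, adjusted p = 0.0227). Nkg7 and Ccl4 varied widely between p65KO libraries, and both were lost without either library of run 1 or without p65KO replicate 3, as was Tbx21. Nkg7 was also lost without WT replicate 3, and Ccl4 without WT replicate 4. Ifng missed the threshold, with 9.61, 6.95 and 20.01 FPKM in p65KO Treg and 5.62, 8.61, 5.66 and 1.75 FPKM in WT Treg (1.12 ± 0.58, adjusted p = 0.237).

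Markers of NK and CD8 T cells were given the same test, and 0 of 8 tested were called. In all 3 pairs 4 were higher and 2 lower, against 32.5% and 15.3% of all genes tested. Their summed level was 33.7, 15.8 and 13.5 FPKM in p65KO Treg and 26.5, 14.4, 9.23 and 12.6 FPKM in WT Treg. The NK receptor gene Ncr1 was at most 0.152 FPKM in p65KO Treg and 0.439 FPKM in WT Treg, Klrb1c at most 0.409 and 1.54 FPKM, and Cd8a at most 2.77 FPKM in both groups. Cd8b1 was 17, 11.5 and 9.84 FPKM in p65KO Treg and 15, 10.1, 7.6 and 9.77 FPKM in WT Treg, with wide overlap. Gzma, a granzyme of these cells, was 9.59, 2.65 and 2.3 FPKM in p65KO Treg and 3.0, 2.07, 0.474 and 1.11 FPKM in WT Treg, higher in each pair and not called (0.77 ± 0.43, adjusted p = 0.271). The part of NK and CD8 T cells in the type 1 and cytotoxic results was not tested.

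**Figure D3:**
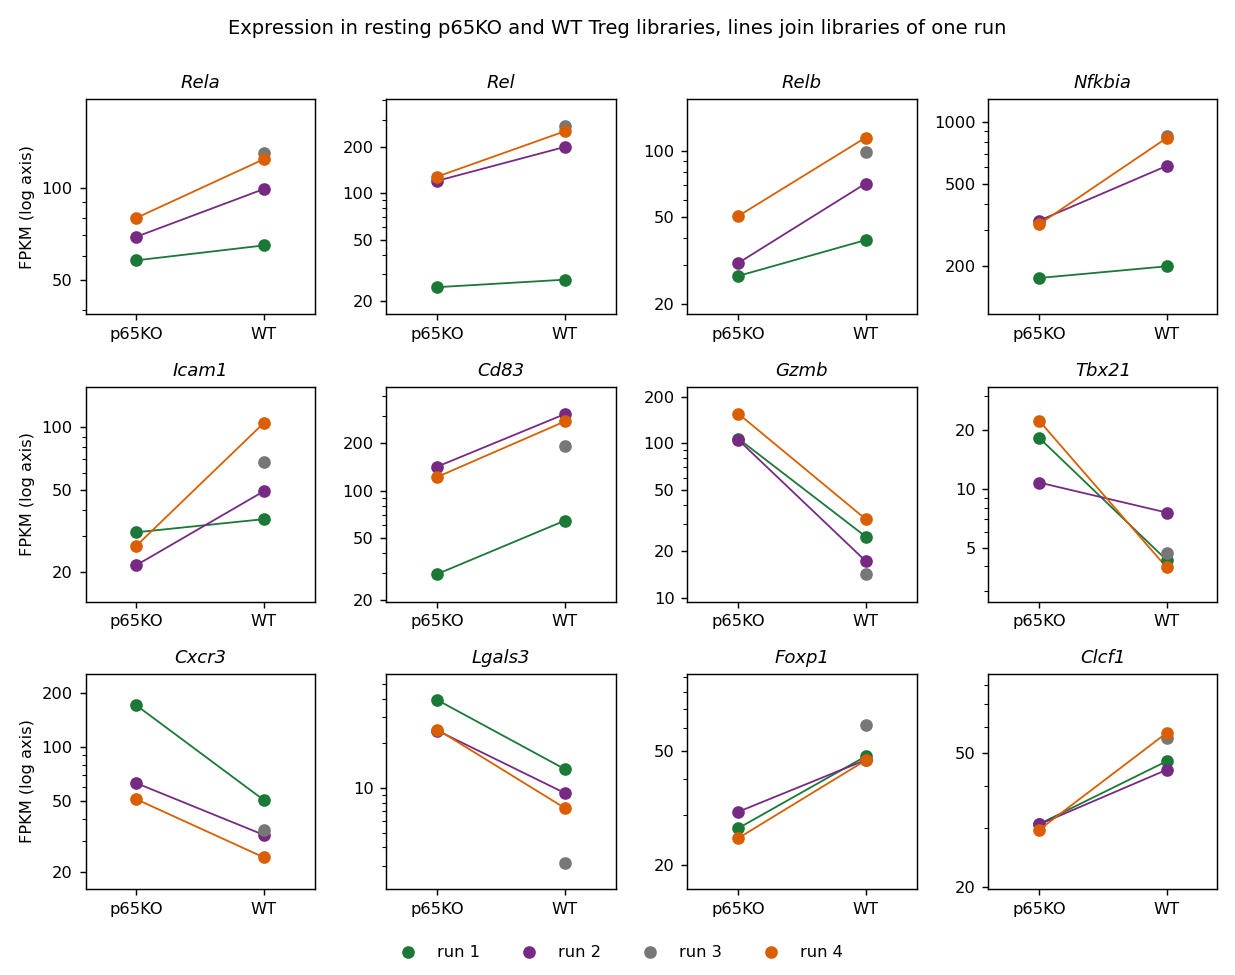
FPKM of 12 genes in each resting library on log axes, p65KO Treg left of WT Treg, with lines joining libraries of the same run; WT replicate 3 (run 3) has no partner. Gzmb, Tbx21, Lgals3, Foxp1, Icam1 and Clcf1 show no overlap between the groups, while levels of Rel and Nfkbia are low in both libraries of run 1.

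Treg signature genes changed in both directions. Of 35 tested, 7 rose (20%, against 7.08% of all genes tested) and 2 fell (5.71%, against 1.74%), with a median of 0.22, and without p65KO replicate 3 the counts were 2 and 0. Penk, which encodes the opioid precursor proenkephalin, was 159.6, 184 and 355 FPKM in p65KO Treg, against 51, 88.8, 129.98 and 135 FPKM in WT Treg. Its lowest p65KO library was above its highest WT library, and it rose by 1.39 ± 0.16 (adjusted p = 0.00223). Capg, an actin-capping protein, rose by 0.64 ± 0.09 (adjusted p = 0.00521) and Neb by 0.92 ± 0.13 (adjusted p = 0.00608). Differences of Il2ra, the IL-2 receptor chain CD25 (0.28 ± 0.16, adjusted p = 0.282), of Ctla4 (0.22 ± 0.27, adjusted p = 0.624) and of Ikzf2, the transcription factor Helios (0.17 ± 0.12, adjusted p = 0.375), did not pass. Falls were seen in Cd83, described above, and in Plagl1, a zinc finger protein, at 1.83, 8.97 and 69.9 FPKM in p65KO Treg and 5.36, 29.9, 112 and 195 FPKM in WT Treg (-1.32 ± 0.30, adjusted p = 0.025). Plagl1 was lower in each pair over a wide range between runs, and its fall was lost without p65KO replicate 3, WT replicate 4 or either library of run 1 or 2.

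Genes of resting or central T cells were mostly lower. Of 21 tested, 3 fell (14.3%, against 1.74% of all genes tested) and none rose, with a median of -0.43. In all 3 pairs 13 of the 21 were lower, as were 15.3% of all genes tested. Foxp1 (chr6:98875336-99385339), a transcription factor of T cell quiescence, was 26.9, 30.7 and 24.9 FPKM in p65KO Treg, against 47.8, 46.4, 61.6 and 46.3 FPKM in WT Treg. The groups did not overlap, and Foxp1 fell by 0.82 ± 0.14 (adjusted p = 0.0117). Bach2, a repressor of effector differentiation, was 11.4, 13.9 and 20.3 FPKM in p65KO Treg and 18, 20.9, 42 and 39.3 FPKM in WT Treg (-0.71 ± 0.14, adjusted p = 0.0178). Actn1, an actin crosslinker, was 48.2, 31.4 and 23.8 FPKM in p65KO Treg and 89.8, 46.8, 50.3 and 68 FPKM in WT Treg (-1.04 ± 0.18, adjusted p = 0.0138). Bach2 was lower within each pair and overlapped only across runs, as p65KO replicate 3 was above WT replicate 1. None of the 3 stayed called without either library of run 1 or without p65KO replicate 3. Foxo1, Klf2 and Il6ra were lower in each pair without being called (-0.53, -0.56 and -0.60), and Tcf7 and Lef1 had differences of -0.40 and -0.43, with adjusted p of 0.234 and 0.105.

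**Figure D4:**
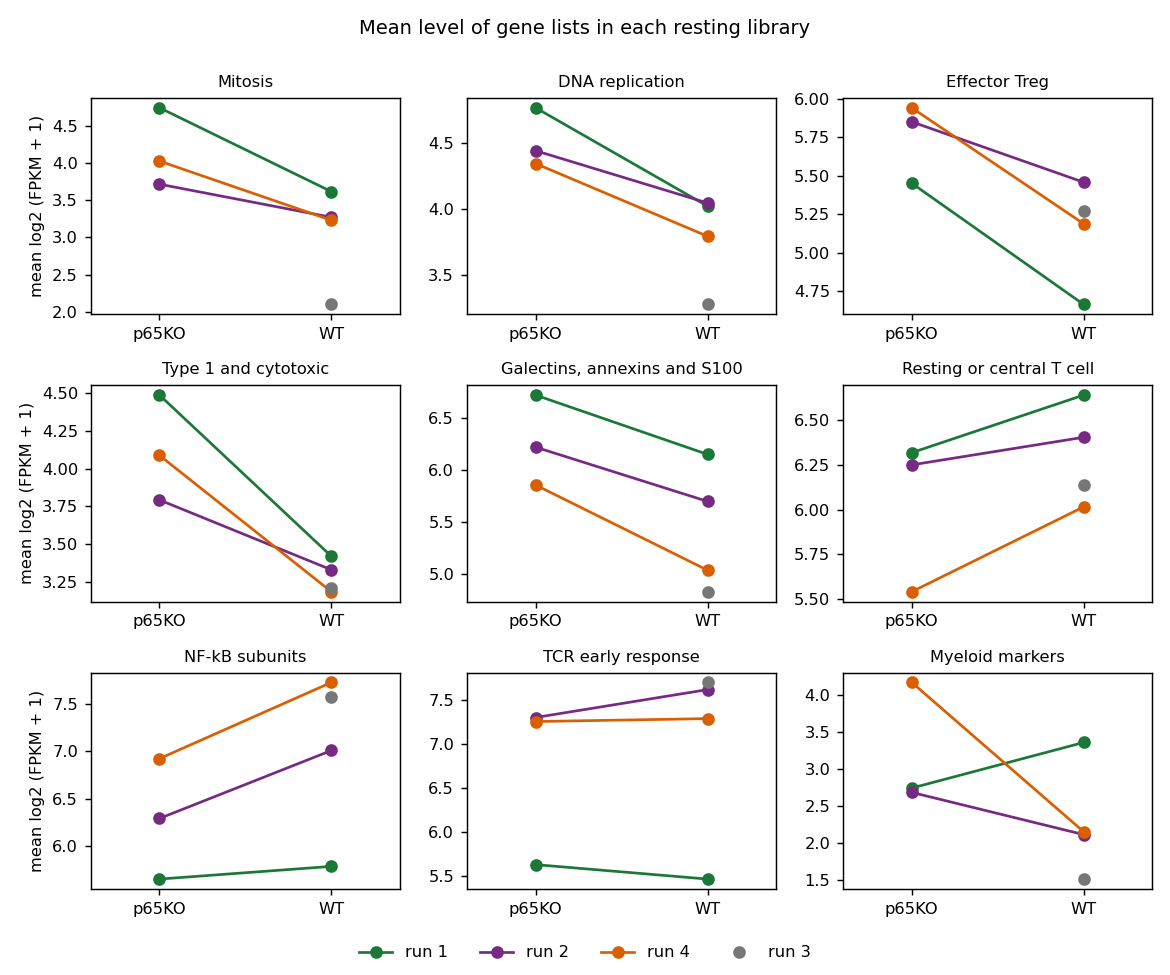
Mean log2(FPKM + 1) of 9 gene lists in each resting library, p65KO Treg left of WT Treg, with lines joining libraries of the same run. In all 3 pairs the p65KO library is above its partner for mitosis, DNA replication, effector Treg, type 1 and galectin lists and below it for resting or central genes and NF-kB subunits; the myeloid markers (lower right) change sign between runs.

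Most galectin, annexin and S100 genes rose. Of 15 tested, 9 rose (60%, against 7.08% of all genes tested) and none fell, with a median of 0.56. Lgals3 (chr14:47993535-48005842), which encodes galectin 3, was 39.1, 24.4 and 24.8 FPKM in p65KO Treg, against 13.4, 9.29, 3.16 and 7.36 FPKM in WT Treg. S100a6, a calcium-binding protein, was 407, 275 and 125 FPKM in p65KO Treg and 137, 109.7, 41.1 and 38.5 FPKM in WT Treg. Lgals3 did not overlap between the groups, and S100a6 overlapped only across runs. Lgals3 rose by 1.59 ± 0.21 (adjusted p = 0.00376) and S100a6 by 1.55 ± 0.14 (adjusted p = 0.00117). S100a4 and S100a11 rose by 1.12 ± 0.11 (adjusted p = 0.00144) and 0.97 ± 0.10 (adjusted p = 0.00144), and the immunomodulatory galectin Lgals1 by 1.19 ± 0.20 (adjusted p = 0.012). The count of rises was 4 without either library of run 1, 3 without p65KO replicate 3 and 5 on resting libraries alone.

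Because myeloid cells also carry galectin 3 and S100 proteins, myeloid markers stand beside this list. Of 14 tested, 1 rose (Cst3, 0.43 ± 0.12, adjusted p = 0.0415), and the median was 0.42. That is 7.14% of the list, against 7.08% of all genes tested. Their summed level was 463, 411 and 963 FPKM in p65KO Treg and 491, 313, 162 and 188 FPKM in WT Treg. In run 1 it was 463 FPKM in p65KO Treg and 491 FPKM in WT Treg, whereas S100a6 was 407 and 137 FPKM in the same libraries. In run 4 the sum was 963 FPKM in p65KO Treg and 188 FPKM in WT Treg, and S100a8 and S100a9 alone were 336 and 283 FPKM in that p65KO library. Within pairs 5 of the 14 markers were higher in all 3 and none was lower in all 3, against 32.5% and 15.3% of all genes tested. Itgam, the integrin chain CD11b, was 2.71, 1.32 and 3.57 FPKM in p65KO Treg and 1.26, 0.595, 0.0962 and 0.319 FPKM in WT Treg, with no overlap, and missed the threshold (1.0 ± 0.29, adjusted p = 0.0546). Csf1r, the macrophage growth factor receptor, was 1.09, 1.02 and 2.58 FPKM in p65KO Treg and 9.76, 0.574, 0.115 and 0.658 FPKM in WT Treg. B cell markers had 0 of 11 called and summed to 30.6, 19.4 and 7.03 FPKM in p65KO Treg and 82.3, 14.8, 6.74 and 7.38 FPKM in WT Treg. Xbp1 was the 1 call of 4 plasma cell markers (0.33 ± 0.09, adjusted p = 0.0444), and 0 of 7 MHC class II, 5 dendritic, 5 erythroid and platelet and 2 stromal genes tested were called. The part of other cell types in these results was not tested.

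Most cell division genes were higher in every pair. Of 28 tested mitosis genes 23 rose (82.1%) and of 29 tested DNA replication genes 21 rose (72.4%), against 7.08% of all genes tested. None fell, and the medians were 0.90 and 0.68. All 28 mitosis genes and 26 replication genes were higher in all 3 pairs, against 32.5% of all genes tested. The mean log2(FPKM + 1) of the mitosis list was 4.74, 3.71 and 4.02 in p65KO Treg and 3.61, 3.27, 2.10 and 3.23 in WT Treg. Thus p65KO replicate 1 had the highest level, WT replicate 3 the lowest by far, and the gap within run 2 was the smallest. Rrm2, a subunit of ribonucleotide reductase, was 81.8, 45.4 and 51.2 FPKM in p65KO Treg, against 36.5, 28.1, 9.31 and 19.7 FPKM in WT Treg (1.17 ± 0.21, adjusted p = 0.0133). Mcm6, a subunit of the replicative helicase, was 119, 110.3 and 94.7 FPKM in p65KO Treg and 71.1, 83.9, 68.6 and 75.9 FPKM in WT Treg (0.47 ± 0.08, adjusted p = 0.0125). Both had no overlap between the groups. Cdk1, the mitotic kinase, rose by 1.06 ± 0.22 (adjusted p = 0.0198), Ccna2, its partner cyclin, by 1.10 ± 0.23 (adjusted p = 0.0207), and Aurka, a spindle kinase, by 0.86 ± 0.17 (adjusted p = 0.0172). Among 15 tested G1 regulators 2 rose (13.3%, against 7.08% of all genes tested) and 1 fell (6.67%, against 1.74%). Cdkn2c, an inhibitor of G1 kinases, rose by 0.77 ± 0.13 (adjusted p = 0.0117), the transcription factor E2f2 rose by 0.52 ± 0.13 (adjusted p = 0.0327), and Myc, a driver of growth, fell by 0.39 ± 0.10 (adjusted p = 0.0412).

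These counts rested on single libraries. Without either library of run 1 none of the mitosis or replication genes was called, without p65KO replicate 3 the counts were 0 and 1, on resting libraries alone 1 and 0, and without WT replicate 3 they were 5 and 9. No G1 regulator rose without either library of run 1, and none was called without p65KO replicate 3. None fell without either library of run 2, WT replicate 3 or WT replicate 4 or on resting libraries alone. The pair of run 1 was the one that differed in Xist and Y-linked genes. Its part in the result was not tested.

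**Figure D5:**
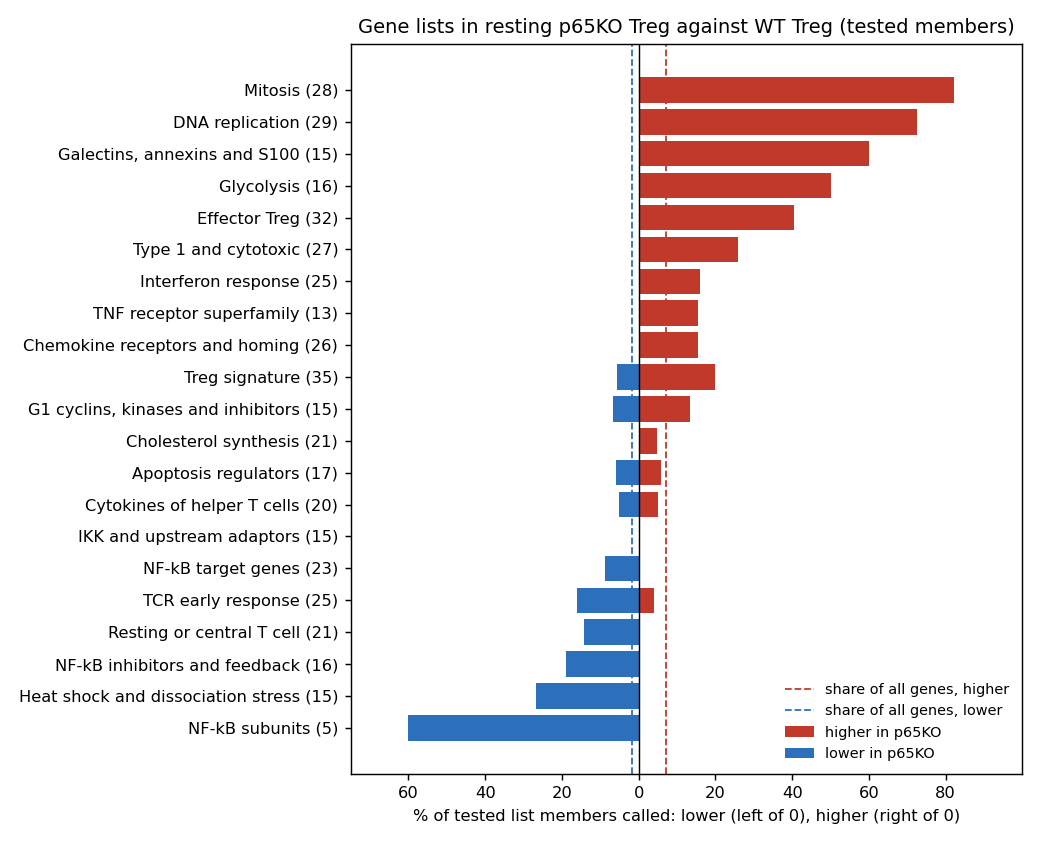
Share of each list's tested members called higher (right of 0, red) or lower (left of 0, blue) in p65KO Treg; the number tested is in brackets and dashed lines mark the shares of all genes tested, 7.08% and 1.74%. Mitosis and DNA replication lead with 82.1% and 72.4% higher, and 60% of the 5 NF-kB subunit genes were lower, the targeted gene Rela among them.

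Glycolysis genes rose in part, with 8 of 16 called (50%, against 7.08% of all genes tested), none lower and a median of 0.35. Tpi1, triosephosphate isomerase, was 89.4, 69.7 and 101 FPKM in p65KO Treg, against 45.6, 39.5, 29.2 and 50.9 FPKM in WT Treg. It had no overlap and rose by 0.94 ± 0.15 (adjusted p = 0.0103), and Ldha, lactate dehydrogenase, rose by 0.61 ± 0.11 (adjusted p = 0.0133). The count was 1 without either library of run 1, 5 without either of run 2, 0 without p65KO replicate 3, 4 without WT replicate 3 or WT replicate 4 and 3 on resting libraries alone. Cholesterol synthesis genes showed 1 call of 21 (Ebp, 0.41 ± 0.07, adjusted p = 0.0118), with a median of 0.05. That rise was 4.76% of the list, against 7.08% of all genes tested.

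Early response genes of the T cell receptor, which hold several short-lived mRNAs, were lower in part. Of 25 tested, 4 fell (16%, against 1.74% of all genes tested) and 1 rose (4%, against 7.08%), with a median of -0.19. The medians in the pairs of runs 1, 2 and 4 were 0.13, -0.30 and -0.06. Without p65KO replicate 3 none was called. No gene of the list rose without either library of run 1, without WT replicate 3, with size factors or on resting libraries alone. The falls were 2 without either library of run 2, WT replicate 3 or WT replicate 4 or on resting libraries alone, and without either library of run 2 the rises were 4. Ppp1r15a, a regulator of the stress response, was 26.1, 215 and 126 FPKM in p65KO Treg, against 41.4, 287, 308 and 254 FPKM in WT Treg (-0.74 ± 0.11, adjusted p = 0.0084). Zfp36, an mRNA-decay factor, was 128, 140.1 and 119.6 FPKM in p65KO Treg and 165, 237, 265 and 176 FPKM in WT Treg, without overlap (-0.60 ± 0.10, adjusted p = 0.0117). Fos had 24, 148 and 96 FPKM in p65KO Treg and 29.9, 180.4, 217 and 169 FPKM in WT Treg (-0.49 ± 0.13, adjusted p = 0.0413). The libraries of run 1 stood at the low end of both groups for Fos and Ppp1r15a. Fosl2, another AP-1 subunit, rose, with 5.55, 157 and 242 FPKM in p65KO Treg and 1.71, 106, 208 and 175 FPKM in WT Treg (0.78 ± 0.18, adjusted p = 0.0261). Heat shock and dissociation stress genes had 4 falls of 15 (26.7%, against 1.74% of all genes tested). The falls of that list were 1 without either library of run 1, 2 without either library of run 2 or p65KO replicate 3, and 0 on resting libraries alone. Hspa1b was 0.278, 14.4 and 26.8 FPKM in p65KO Treg and 11.7, 53.9, 37.1 and 34.6 FPKM in WT Treg (-1.73 ± 0.37, adjusted p = 0.0228), and its near-identical neighbour Hspa1a differed by -1.49 ± 0.33, so that reads of the 2 genes are uncertain. Both were almost absent in p65KO replicate 1, and the fall of Hspa1a was lost without either library of run 1 or of run 2.

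Other lists had few calls. Interferon response genes had 4 rises of 25 (16%, against 7.08% of all genes tested), with a median of 0.29. The rises were 2 with size factors or without WT replicate 3 or WT replicate 4, and 1 without p65KO replicate 3 or on resting libraries alone. The 4 were Irgm1 (0.88 ± 0.24, adjusted p = 0.0446), Iigp1 (1.04 ± 0.26, adjusted p = 0.0327), Socs1 (0.51 ± 0.09, adjusted p = 0.0153) and Gm4951 (1.76 ± 0.21, adjusted p = 0.00231). Irgm1 and Iigp1 encode immunity-related GTPases and Socs1 a feedback inhibitor of cytokine signals. Of 13 TNF receptor genes 2 rose (15.4%, against 7.08% of all genes tested), Tnfrsf1b (0.51 ± 0.11, adjusted p = 0.0238) and Tnfrsf8 (0.52 ± 0.13, adjusted p = 0.0373). No TNF receptor gene rose without p65KO replicate 3 or WT replicate 3, with size factors, where 1 fell, or on resting libraries alone, and 1 rose when any 1 of the other 5 libraries was left out. Among 17 apoptosis regulators 1 rose and 1 fell (5.88% each, against 7.08% and 1.74% of all genes tested). Bbc3, the death inducer Puma, fell by 0.71 ± 0.13 (adjusted p = 0.014). Of 20 cytokine genes of helper T cells, Penk rose and Clcf1 fell (5% each, against 7.08% and 1.74% of all genes tested). Clcf1 (chr19:4214392-4222615), a cytokine of the IL-6 family, was 30.8, 30.7 and 29.6 FPKM in p65KO Treg and 47.3, 44.6, 55.4 and 57.5 FPKM in WT Treg. Its values were tight within each group, did not overlap and did not follow the run, and it fell by 0.70 ± 0.10 (adjusted p = 0.00512). Clcf1 was 17.7 and 17.9 FPKM in c-RelKO Treg and 5.42 and 5.62 FPKM in DKO Treg.

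Genes called with and without the block numbered 5: Gzmb, Lsr, Frmd5, Gm4951 and Clcf1. Lsr, a receptor for lipoproteins, was 11.9, 7.0 and 9.27 FPKM in p65KO Treg, against 3.06, 3.68, 2.73 and 3.43 FPKM in WT Treg (1.24 ± 0.17, adjusted p = 0.00457). Frmd5, an adaptor of cell junctions, was 1.57, 1.77 and 2.62 FPKM in p65KO Treg and 0.589, 0.611, 0.568 and 0.72 FPKM in WT Treg (0.88 ± 0.10, adjusted p = 0.00231). Gm4951 was 9.71, 5.48 and 7.98 FPKM in p65KO Treg and 2.57, 0.954, 1.79 and 1.2 FPKM in WT Treg. All 3 genes had no overlap between the groups.

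By size, and leaving out predicted genes, the 12 largest rises of genes with a mean of at least 5 FPKM in a group and one sign in all 3 pairs were Ccl4, Gzmb, Ccl1, Nkg7, Fam55d, Srxn1, Plac8, Gp49a, Lgals3, Tbx21, Xaf1 and S100a6. The predicted gene Gm4951, given above at 1.76, lies between Srxn1 and Plac8 in size. Ccl1, a ligand of Ccr8, was 15, 2.27 and 11.5 FPKM in p65KO Treg, against 1.36, 0.751, 2.15 and 0.298 FPKM in WT Treg (2.36 ± 0.42, adjusted p = 0.0134). Srxn1, an antioxidant enzyme, was 6.81, 6.84 and 34 FPKM in p65KO Treg and 2.19, 3.03, 4.77 and 3.74 FPKM in WT Treg (1.79 ± 0.32, adjusted p = 0.0133), with p65KO replicate 3 far above the others. Gp49a, an immunoglobulin-like receptor with a near-identical neighbour and hence uncertain, differed by 1.63 ± 0.32, adjusted p = 0.0175. Fam55d, Plac8 and Xaf1 rose by 1.99, 1.67 and 1.56.

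By the same rule the 12 largest falls were Eps8l1, Hspa1b, Hspa1a, Plagl1, Camk2b, Tesc, St8sia1, Ccl20, Cd83, Icam1, Actn1 and St8sia6, and the predicted gene Gm14085 (-1.23) lies between Tesc and St8sia1. Eps8l1, an actin regulator, was 0.0357, 0.062 and 0.0717 FPKM in p65KO Treg, against 13.5, 0.108, 11 and 8.27 FPKM in WT Treg (-2.40 ± 0.49, adjusted p = 0.0191). WT replicate 2 was as low as the p65KO libraries, and the 3 other WT libraries were at 8.27 FPKM or more. St8sia1 and St8sia6, both sialyltransferases, fell as well (-1.15 ± 0.21, adjusted p = 0.0144 for St8sia1 and -1.02 ± 0.19, adjusted p = 0.0145 for St8sia6). The calcium-binding protein Tesc was 28.7, 22.5 and 8.12 FPKM in p65KO Treg and 55.1, 45.1, 30.5 and 25 FPKM in WT Treg (-1.24 ± 0.27, adjusted p = 0.0236). Ccl20, the ligand of Ccr6 and a known NF-kB target, was 0.0701, 0.738 and 2.89 FPKM in p65KO Treg and 0.51, 4.13, 11.2 and 7.55 FPKM in WT Treg (-1.13 ± 0.25, adjusted p = 0.0238). Camk2b, a calmodulin kinase subunit, fell by 1.25 ± 0.23 (adjusted p = 0.0145).

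Stimulated Treg (3 h with CD3 and CD28 antibodies at 2 µg/ml and IL-2) gave 1 p65KO library and a WT library in run 4. This pair shares no library with the resting pairs, but it shares its run with a resting pair. That resting pair was among those that selected the genes below. Separate animals are not documented, so the stimulated pair may not be independent of it. Of the 3743 genes higher in all 3 resting pairs, 84.2% were also higher in the stimulated pair, against 62.6% of all genes tested. Of the 1766 genes lower in all 3 resting pairs, 69.0% were also lower, against 37.2% of all. All 28 mitosis genes, all 29 replication genes and all 15 galectin, annexin and S100 genes were higher in this pair. All 5 subunits, the targeted gene Rela among them, were lower. Treg signature and resting or central T cell genes did not keep their resting direction. Of 35 Treg signature genes 15 were higher and 20 lower in the stimulated pair (median -0.10). Of 21 resting or central T cell genes 11 were higher and 10 lower (median 0.11). Of 15 heat shock and stress genes 12 were higher and 3 lower (median 0.26). Their medians in the resting pairs of runs 1, 2 and 4 were -0.13, -0.37 and 0.04. Of 20 helper T cell cytokines 3 were higher and 17 lower (median -0.68, against 0.68 at rest). The resting value rested on run 4, as the medians of these cytokines in the resting pairs were 0, -0.005 and 1.39. Neither of the last lists thus had a direction shared by all 3 resting pairs. Gzmb was 254 FPKM in stimulated p65KO Treg, against 16.6 and 36.1 FPKM in the 2 stimulated WT libraries. Icam1 was 30.2 FPKM in stimulated p65KO Treg and 75 and 102 FPKM in stimulated WT Treg, and Nfkbia was 394 FPKM in stimulated p65KO Treg and 791 and 745 FPKM in stimulated WT Treg. The resting WT libraries of runs 3 and 4, at 857 and 833 FPKM of Nfkbia, were above both stimulated WT libraries. With 1 stimulated p65KO library the pair has no replicate check.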

How the data were processed

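Libraries were made with an Illumina TruSeq kit, per the labels' protocols. The authors deposited gene-level FPKM, per the file headers Cufflinks tracking files without read counts. bcl2fastq, TopHat and Cufflinks were used with mm9, per the submitters' processing notes; their versions, the annotation and the strand setting were not given in the sources used here, so overlapping or near-identical genes are uncertain. Leaving out 250 symbols with an entry not marked OK and summing split entries left 22985. Depth was inferred from the confidence bounds: of implied fragment numbers under 15, 70.5% to 73.9% lay within 0.02 of a whole number, so depths are estimates.

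log2(FPKM + 1) was fitted with limma 3.58.1 (R 4.3.3, trend, 8 residual degrees of freedom) over 21 libraries in 10 groups, with the run as a block, for genes reaching 1 FPKM in 2 or more libraries; the fit was tested on simulated data. Runs were read from consecutive library numbers, which the labels do not call batches. Pairing by run was checked: deviations from the group means correlated at 0.82, 0.63 and 0.80 in the 3 pairs. Named genes were Rela, Rel and Foxp3, the 12 largest rises and falls with a mean of at least 5 FPKM and one sign in all 3 pairs (predicted genes left out), genes called with and without the block, and up to 4 members of each list with the smallest p; further list members are named beside their counts. Members, lists and tests were chosen with earlier results of these data known. Alternatives changed the block, pseudocount, filter, scaling, trend and libraries. Some genes that the rule names or that belong to a list are not reported here by name, while counts over lists include them.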

Additional observations from a re-analysis of the deposited data

Results flagged for a closer look

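In 19 of 129 named genes 1 WT Treg library lay far from the other 3, by Dixon's criterion, which flags about 1 in 20 groups by chance. WT replicate 1 was the one in 12 of them. It was low for Rel (27.5 FPKM), Tnfaip3 (50.5), Map3k14 (21.8), Ppp1r15a (41.4), Fosl2 (1.71), Fos (29.9), Dnajb4 (6.99), Tnfrsf1b (94.8) and Xbp1 (49.8 FPKM). The same library was high for the MHC class II regulator Ciita (1.74 FPKM), the dendritic cell gene Itgax (1.33) and the collagen Col1a1 (2.07 FPKM). WT replicate 3 stood apart at 61.6 FPKM of Foxp1 and 0.580 FPKM of S100a8. WT replicate 4 stood apart at 121 FPKM of Gapdh and in the sex-linked genes Eif2s3y (39.2 FPKM), Xist (0.0075), Kdm5d (9.26) and Ddx3y (92.3 FPKM). p65KO Treg had 3 libraries and was not examined this way.

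The difference between p65KO and WT Treg was itself tested for change with stimulation, as an interaction in the same limma model. The stimulated p65KO arm holds 1 library, assumed to vary as the other groups do, so its own spread was not measured. With that assumption 385 of 11532 genes had an adjusted p under 0.05. Values are the stimulated minus the resting difference on the log2 scale. Among named genes they were -1.18 for Rel (adjusted p = 0.0231), -3.41 for Ccl1 (0.0415) and -1.12 for Neb (0.0355). Positive ones were 1.38 for S100a6 (adjusted p = 0.0235), 1.10 for S100a4 (0.0269), 2.77 for Hspa1a (0.0386), 1.11 for Ccne1 (0.0422), 1.31 for Aurka (0.0450), 1.10 for Cdkn2c (0.0355) and 1.36 for E2f2 (0.0202).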

How the results depend on the processing

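Genes called in resting p65KO Treg against WT Treg numbered 1017, a count that depended most on the block and on single libraries. Without the replicate block it was 5, with the 7 libraries and the run block 4 (2562 at an unadjusted p under 0.05), with the 7 libraries and no block 0 (534 at an unadjusted p under 0.05) and with the 7 libraries blocked by the replicate numbers of the titles 0 (1987 at an unadjusted p under 0.05), all in limma. The 7-library run-block fit had 2 residual degrees of freedom. Leaving out 1 library gave 51 to 804 calls: 51 without p65KO replicate 3, 135 without either library of run 1, 804 without either of run 2, 340 without WT replicate 3 and 450 without WT replicate 4. Without a filter on low values it was 564, with size factors 612 and on resting libraries alone, a setting chosen after seeing the data, 85. Pseudocounts of 0.1 and 0.5, a filter at 5 FPKM and no trend gave 876 to 986. None of the 80 named genes that were called changed sign under any setting run. They were picked from the main fit of these same libraries, so the kept sign is no separate check. Of the 80 genes, 5 passed without the block, 14 without p65KO replicate 3, 36 without either library of run 1, 29 on resting libraries alone and 71 with size factors. The cause of these losses was not tested, and the reduced fits hold fewer libraries by construction.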

Other observations

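The mean log2(FPKM + 1) of the early response list was 5.63, 7.30 and 7.25 in resting p65KO Treg and 5.46, 7.61, 7.70 and 7.28 in resting WT Treg, against 6.84 in the stimulated p65KO library and 7.92 and 7.62 in the stimulated WT libraries. Resting WT libraries of runs 2 to 4 thus lay close to stimulated WT libraries, while both run 1 libraries lay far lower. Neb, the muscle protein nebulin and a known Treg signature gene, was 12.9, 6.87 and 5.51 FPKM in resting p65KO Treg and 5.17, 4.34, 1.48 and 2.57 FPKM in resting WT Treg. It was 1.91 FPKM in stimulated p65KO Treg and 1.63 and 2.55 FPKM in stimulated WT Treg.

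Of 26 tested chemokine receptor and homing genes 4 rose in resting p65KO Treg (15.4%, against 7.08% of all genes tested), among them Ccr8, Cxcr3 and Itgae, and none fell. The count of rises was 2 without either library of run 1 or WT replicate 4 and 3 without either library of run 2. It was 1 without p65KO replicate 3, without WT replicate 3 or on resting libraries alone. Ccr4, a skin-homing receptor, was 39.8, 99.9 and 111 FPKM in p65KO Treg and 41.1, 63.5, 78.1 and 82.7 FPKM in WT Treg and was not called (0.41 ± 0.15, adjusted p = 0.0969). Ccr6, the receptor of Ccl20, was 11.9, 19.6 and 30.2 FPKM in p65KO Treg and 32.7, 22.6, 24.6 and 28.7 FPKM in WT Treg (-0.49 ± 0.27, adjusted p = 0.263). Cxcr4 was 69.3, 499 and 155 FPKM in p65KO Treg and 59.9, 507, 292 and 194 FPKM in WT Treg (-0.09 ± 0.17, adjusted p = 0.766), with its highest levels in run 2 of both groups.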
